A study of Mus musculus with 14 samples.

Results

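Dense clusters of H3K4me1 sites are stretches of the mouse genome in which sites of monomethylated histone H3 lysine 4 lie close together. They were chosen by the number of sites itself: chromosomes 1 to 19 (mm10) were cut into fixed windows of 50 kb, windows holding the centres of 12 or more sites were kept, and adjacent kept windows were joined. Of 49264 windows, 2174 were kept, which is 4.41% of all, and they joined into 1597 clusters. The number of sites in a window, and with it most of the total site bases, is therefore what selected the clusters and is given as description. Windows with 1 to 3 site centres (14505 windows) served for comparison, and 15335 windows with 4 to 11 centres lay between.

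The sites came from ChIP-seq of H3K4me1 in NG3 cells, 1 clone of immortalized mouse embryo fibroblasts. In all libraries the floxed exon 4 of Ash2l had been deleted through Cre-ER, and the cells lived on a lentivirally expressed human ASH2L fused to a mutant FKBP12 and HA tags (FKBP-HA2-ASH2L). ASH2L is a subunit of the KMT2 methyltransferase complexes, and dTAG-13 is a PROTAC that ties the fusion protein to Cereblon so that it is degraded. A control without dTAG-13 was compared with 30 min and 2, 4, 8 and 16 h of dTAG-13, with 2 replicates in each of the 6 conditions and 2 input libraries (control and 16 h). The analysed table holds 1 list of 160144 sites for all libraries together, with a start and an end for each, so there is no value per sample, time point or replicate, and the read depth behind a site is unknown. A site here says that the mark was called in the pooled set, not when or how strongly. The paper reports that H3K4me1 gains after ASH2L loss lay almost only at promoters. Whether a site at a 5′ end was present in the control can therefore not be told. The spread given below is over the 19 chromosomes, which are not replicates of a condition, and intervals are Wilson 95% intervals that cover counting error only and treat sites or genes as independent, although neighbours share a chromatin domain.

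H3K4me1 is placed mainly by the KMT2C and KMT2D complexes and is known as a mark of enhancers, both active and poised, and of the flanks of active promoters. Enhancers of genes that define a cell's identity often lie in groups, within the introns of the gene or in the gene-poor DNA around it. Fibroblasts are known for extracellular matrix, contractile actin bundles and focal adhesions, and for transcription through AP-1 factors (Fos and Jun families), TEAD factors with their coactivators YAP and TAZ, and RUNX factors.

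To show what such sites look like, 200 bases of mm10 plus strand around the centres of 9 sites are printed, with every TGANTCA, the word bound by AP-1 dimers, in capitals. TGANTCA reads the same on both strands. From each of the 3 densest windows with different genes, the sites shown are the intronic site with a match that lies nearest to the middle of the window, its nearest neighbour without a match, and, for contrast, the nearest site with a match that is alone in its window.
Cald1 window, with a match, chr6:34697465-34697664: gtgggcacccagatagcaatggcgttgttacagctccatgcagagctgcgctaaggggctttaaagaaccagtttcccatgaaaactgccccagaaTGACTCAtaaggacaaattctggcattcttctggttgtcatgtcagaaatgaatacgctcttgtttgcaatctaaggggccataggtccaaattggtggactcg
Cald1 window, nearest site without, chr6:34696760-34696959: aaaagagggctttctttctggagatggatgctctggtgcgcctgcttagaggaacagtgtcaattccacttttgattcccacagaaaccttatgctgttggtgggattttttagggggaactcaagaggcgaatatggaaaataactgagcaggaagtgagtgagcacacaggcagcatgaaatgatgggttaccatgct
Lone site in Lrguk, chr6:34083548-34083747: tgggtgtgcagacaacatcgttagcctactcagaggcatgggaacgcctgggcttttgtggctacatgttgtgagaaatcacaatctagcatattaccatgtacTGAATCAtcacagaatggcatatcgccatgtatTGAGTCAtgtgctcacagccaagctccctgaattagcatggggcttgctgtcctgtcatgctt
Frs2 window, with a match, chr10:117118230-117118429: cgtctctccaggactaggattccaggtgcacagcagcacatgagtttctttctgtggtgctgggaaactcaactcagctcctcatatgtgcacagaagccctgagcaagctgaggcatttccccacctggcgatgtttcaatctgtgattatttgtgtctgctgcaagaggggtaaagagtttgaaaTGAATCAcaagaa
Frs2 window, nearest site without, chr10:117119576-117119775: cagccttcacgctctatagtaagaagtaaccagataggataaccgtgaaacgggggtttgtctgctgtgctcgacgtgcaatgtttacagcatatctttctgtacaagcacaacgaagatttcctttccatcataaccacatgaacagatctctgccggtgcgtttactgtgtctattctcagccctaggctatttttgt
Lone site in Grip1, chr10:119547866-119548065: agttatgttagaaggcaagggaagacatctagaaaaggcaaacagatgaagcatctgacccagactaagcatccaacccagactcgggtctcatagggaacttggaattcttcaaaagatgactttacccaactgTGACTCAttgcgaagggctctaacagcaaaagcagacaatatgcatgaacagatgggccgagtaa
Ext1 window, with a match, chr15:53188644-53188843: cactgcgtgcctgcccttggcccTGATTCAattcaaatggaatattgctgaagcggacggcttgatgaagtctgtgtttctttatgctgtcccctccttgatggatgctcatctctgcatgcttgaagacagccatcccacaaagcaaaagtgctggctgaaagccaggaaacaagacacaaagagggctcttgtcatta
Ext1 window, nearest site without, chr15:53192534-53192733: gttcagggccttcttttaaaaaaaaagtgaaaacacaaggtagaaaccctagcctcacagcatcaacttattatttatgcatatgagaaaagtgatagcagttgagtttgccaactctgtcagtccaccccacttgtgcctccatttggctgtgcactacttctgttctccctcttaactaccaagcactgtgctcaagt
Lone site outside genes, chr15:52426079-52426278: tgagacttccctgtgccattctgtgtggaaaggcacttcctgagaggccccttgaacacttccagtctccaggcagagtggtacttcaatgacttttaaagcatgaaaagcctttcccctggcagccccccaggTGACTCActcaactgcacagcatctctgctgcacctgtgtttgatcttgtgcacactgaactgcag
The dense sites lie in introns of Cald1 (caldesmon, an actin-binding protein), Frs2 (an adaptor of fibroblast growth factor receptors) and Ext1 (a glycosyltransferase that builds heparan sulfate chains). The widths of these sites ranged from 212 bp to 1143 bp, and the lone sites were 988, 427 and 306 bp wide. A match is a description of the letters and not a binding site.

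The distribution of site centres had a long upper tail. The median window held 2 centres and the mean was 3.20, while 17250 windows held none. Windows of unsequenced bases, which can hold no site, were not left out of these counts. There were 748 windows with 11 centres, just outside the rule, and 593 with 12, just inside it. Only 133 windows held 20 or more centres. The most, 34 centres, lay in 1 window of Cald1. Windows with 11 and with 12 centres had 23.2% and 25.2% of their bases under sites, with 53.6% and 53.9% of centres in introns.

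**Figure D1:**
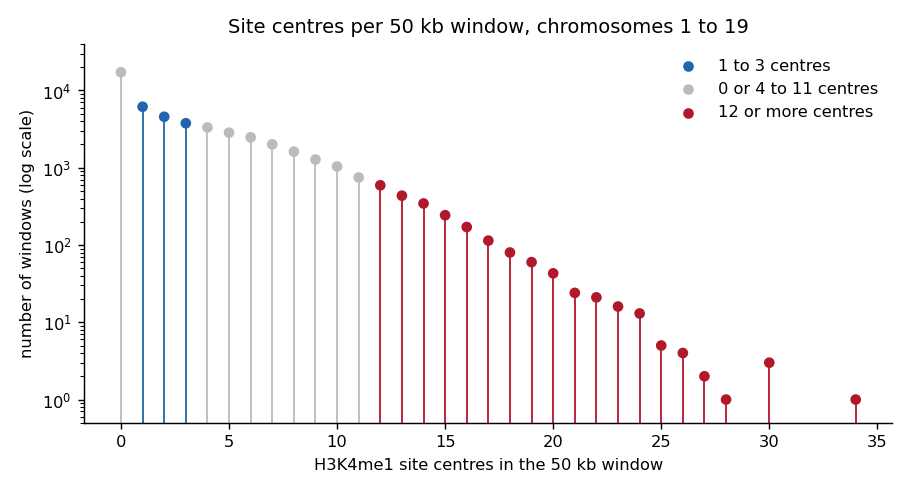
Number of 50 kb windows (y axis, log scale) by the number of H3K4me1 site centres they hold (x axis), for the 49264 windows of chromosomes 1 to 19; blue points are the comparison windows of 1 to 3 centres, red points the windows of 12 or more, grey points the others. The counts fall from 748 windows at 11 centres to 593 at 12, and 1 window lies apart at 34.

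The clusters took up 108.7 Mb and held 31441 of 157548 autosomal site centres, or 19.96%, and 21.9% of the bases under sites. Most were short: 1229 were 1 window, 249 were 2 windows and 119 were 3 windows or more. The longest, 3 clusters of 7 windows, spanned 350 kb. The median cluster held 14 centres, and 71 clusters held 50 or more. By chromosome, the share of windows that were dense ran from 3.25% on chromosome 12 to 6.44% on chromosome 15, and the share of a chromosome's sites inside them from 15.7% on chromosome 18 to 24.8% on chromosome 15. Of the 11 clusters with 91 or more centres, 4 lay on chromosome 15.

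The cluster with the most sites lay over Ext1 (chr15:53100001-53350000). It held 126 centres, 125 of them in the body of Ext1, and sites covered 53.8% of its 250 kb. 124 of the centres were intronic. A cluster of 125 centres followed at Rbfox2 (chr15:77050001-77400000), which encodes an RNA-binding regulator of splicing. There 95 centres lay in the gene, and the 5′ ends of Mb (myoglobin) and Apol7a lay in the same cluster. Maml2, a coactivator of Notch receptors, held all 115 centres of its cluster (chr9:13400001-13700000), 114 of them intronic, and the small gene model Gm17571 starts inside it. In these 3 clusters most sites lay within the span of the gene.

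The cluster at Thbs1 (chr2:117850001-118150000), the gene of the matrix glycoprotein thrombospondin-1, was of another kind. It also held 115 centres, but Thbs1 is only 15.3 kb long and took 10 of them, and 7.83% of the centres were intronic. Most of the other sites lay in the DNA upstream of Thbs1, and the next protein-coding gene on that side, Rasgrp1, was 507 kb from the cluster. Sites were narrower there, with a median of 461 bp against 735 bp at Ext1.

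The remaining clusters of the top 10 were again mostly intronic. A cluster of 106 centres (chr13:63000001-63350000) lay over the gene model 2010111I01Rik, which held 98 of them, and over part of Fancc, a Fanconi anaemia gene. No protein-coding gene starts in it, but the microRNA genes Mir23b, Mir27b and Mir24-1 do. Ldlrad4, an inhibitor of TGF-β signalling, held all 106 centres of its cluster (chr18:67950001-68250000). The 99 centres at Farp1 (chr14:121000001-121350000), a guanine nucleotide exchange factor, were shared with Stk24, which took 17. At Cdk17 and Elk3 (chr10:93150001-93450000), a cyclin-dependent kinase and an ETS family repressor, 40 and 21 of 95 centres lay in the respective gene, and 55.8% were intronic. Filip1l starts inside Cmss1 on the opposite strand, so that 76 of the 92 centres of that cluster (chr16:57300001-57600000) belong to both. Asap1, a GTPase-activating protein of Arf at focal adhesions, held 85 of 91 centres (chr15:64150001-64400000). Across these 10 clusters, sites covered between 24.1% (Cmss1) and 53.8% (Ext1) of the bases, so that similar numbers of sites went with different amounts of marked DNA.

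**Figure D2:**
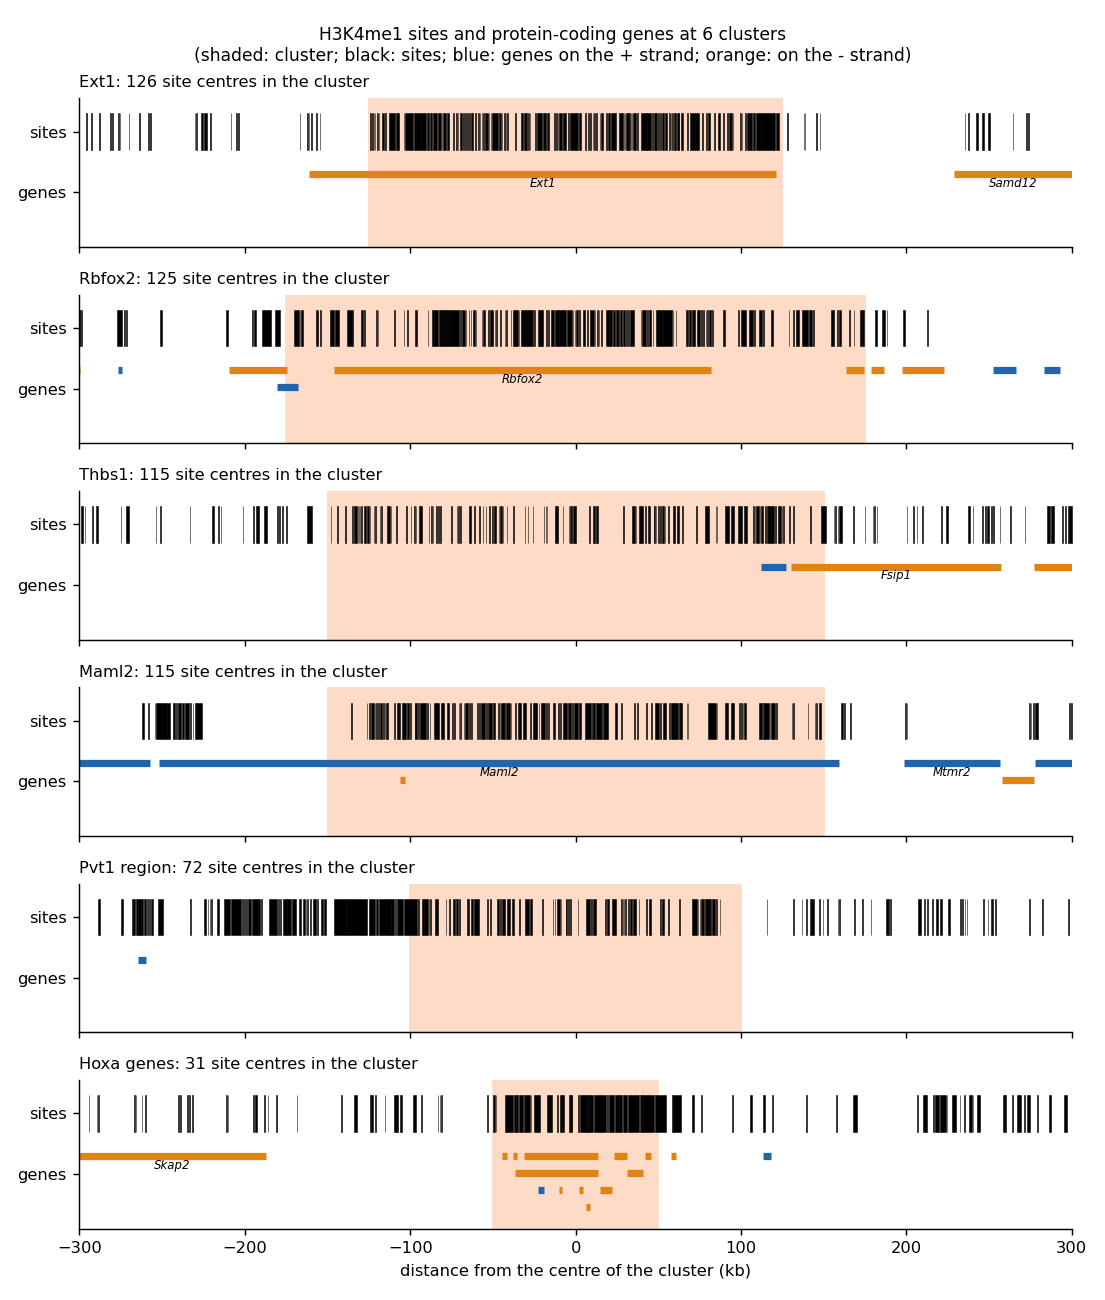
H3K4me1 sites (black, drawn to scale) and protein-coding genes (blue, plus strand; orange, minus strand) at 6 clusters, against the distance from the centre of the cluster in kb; the cluster is shaded and larger genes are named. In the Ext1, Rbfox2 and Maml2 panels most sites lie within the span of the gene, in the Thbs1 panel they fill the DNA beside a short gene, in the Pvt1 panel no protein-coding gene lies in the cluster, and the 31 centres at the Hoxa genes lie among 12 gene starts.

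Counted by gene rather than by cluster, Foxp1 led. This forkhead transcription factor gene of 597 kb held 155 centres in dense windows, in 10 windows that made up 79.1% of its length. It was followed by Gm20388 with 133 centres, a gene model that spans 4435 kb across many other genes and is therefore hard to read as 1 gene. Ext1 had 125, Maml2 115, Lpp 111, Ldlrad4 106, 2010111I01Rik 98, Rbfox2 95, Cmss1 92 and Magi1 88. Lpp encodes a LIM protein of focal adhesions and Magi1 a scaffold of cell junctions. Dense windows made up the whole of Rbfox2 and 97.8% of Cmss1, but 38.4% of Magi1, whose 608 kb held 134 centres in all. In sites per length, Ext1 (4.54 per 10 kb) and Rbfox2 (4.17 per 10 kb) stood above Foxp1 (2.93) and Magi1 (2.20).

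The clusters fell into 4 kinds by what they cover. Of the 1597, 834 (52.2%) contained the 5′ end of at least 1 protein-coding gene. Another 424 (26.6%) contained none but lay wholly inside 1 gene. 91 (5.70%) overlapped a gene in part, and 248 (15.5%) overlapped no protein-coding gene. The median number of centres was 14, 14, 14 and 13 in that order, which the rule holds just above 12 for clusters of 1 window. Sites covered a median of 27.8%, 26.2%, 27.5% and 22.3% of a cluster's bases, least outside genes. Median site widths were 690, 670, 659 and 604 bp. Within each kind the range was far wider than these gaps: the covered share ran from 10.4% to 71.2% among clusters with a 5′ end and from 9.46% to 69.6% among those without a gene. Clusters of several windows made up 27.6% of those with a 5′ end and 10.1% of those without a gene. A longer cluster is more likely to include a 5′ end, so this comparison is tied to how the kinds were defined.

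Among clusters without a protein-coding gene, the one with most sites held 72 centres (chr15:62150001-62350000). It lies over part of Pvt1, a long non-coding RNA gene, 160 kb beyond Myc on one side and 1426 kb from Gsdmc on the other. Its 4 windows held 20, 19, 17 and 16 centres. The window adjoining it on the Myc side held 9 centres, and so was not kept, although sites covered 84.2% of it, against 28.1% to 40.3% in the 4 kept windows. A count of sites thus passed over a stretch in which fewer, wider sites covered more. Beyond that stretch, nearer to Myc, a window of 22 centres with 59.4% covered was kept as a cluster of its own. A cluster of 71 centres (chr1:71750001-72000000) lay 96.8 kb from Fn1, the gene of the matrix protein fibronectin, and 159 kb from Mreg. The third, with 66 centres (chr4:89350001-89550000), lay 39.0 kb from Cdkn2b, an inhibitor of cyclin D kinases, and 129 kb from Dmrta1. The site widths of the 3 were alike, with medians of 641, 532 and 624 bp.

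At the other extreme, the cluster with the most gene starts lay over the Hoxa genes (chr6:52150001-52250000), which set position along the body axis. It contained 12 protein-coding 5′ ends, among them Gm28308, Hoxa3, Hoxa7 and Hoxa9, with 31 centres, and sites covered 67.2% of it. 18 of the centres lay within 1 kb of an annotated transcription start site (TSS). A cluster on chromosome 19 (chr19:5400001-5500000) with 10 gene starts held 27 centres and included Fibp, Efemp2, Mus81 and Cfl1, the gene of the actin-severing protein cofilin. The third, a lone window at keratin-associated protein genes on chromosome 11 (chr11:99550001-99600000), had 8 gene starts, among them Gm11939, Krtap3-1, Krtap1-5 and Krtap1-4, and 13 centres, with 15.0% of its bases covered. Gene starts therefore did not go with one amount of marked DNA.

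Compared with windows of 1 to 3 sites, dense windows lay more often in genes and their sites more often in introns. A centre was called intronic when it lay in a protein-coding gene and in no annotated exon. That held for 61.6% (61.1% to 62.1%) of 31441 centres in dense windows, for 48.4% in windows of 4 to 11 sites and for 37.9% (37.3% to 38.5%) of 26618 centres in windows of 1 to 3 sites. By chromosome the shares were 62.2% ± 5.07 and 37.8% ± 3.82 (SD, n = 19), the difference was 24.4 ± 5.82 percentage points, and it was above 0 on 19 of 19 chromosomes. Introns made up 58.6% of the bases of dense windows and 37.5% of the bases of windows of 1 to 3 sites. The intronic share of the centres was thus close to that of the DNA they lay in, in both groups of windows. The share of windows lying wholly in protein-coding genes was 37.8% against 23.7%, and the share touching no such gene 16.8% against 42.2%.

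Of the sites in dense windows, a smaller share lay at promoters. 10.3% of their centres were within 1 kb of a TSS, against 17.4% in windows of 1 to 3 sites, a difference of -7.20 ± 4.13 percentage points over chromosomes and below 0 on 19 of 19. DNA within 1 kb of a TSS made up 8.28% of the bases of dense windows and 5.54% of those of 1 to 3 sites. The lower share of centres thus did not come with less promoter DNA. Centres within 1 kb of a TSS numbered 3229 in the 2174 dense windows and 4624 in the 14505 windows of 1 to 3 sites. The rule sets the number of sites in a window, so the share of them at promoters is tied to it. Centres in annotated exons were 6.43% against 9.84%. In number, gene starts were nevertheless more common in dense windows: 0.598 protein-coding 5′ ends per window against 0.350, higher on 18 of 19 chromosomes. Windows of 4 to 11 sites had the most, 0.721 per window. Thus the number of gene starts did not follow the number of sites throughout, while the intronic share did. Of the 1299 genes that start in dense windows, 93.8% had a site within 1 kb of the 5′ end, compared with 61.0% of the 5071 that start in windows of 1 to 3 sites. With more sites in a window a site near the start is more likely, so this comparison is tied to the rule.

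Genes that start in dense windows were longer at the median, but not on every chromosome and not just below the threshold. Their median length was 30.0 kb, against 22.0 kb for windows of 1 to 3 sites, 18.9 kb for 4 to 11 sites and 17.6 kb for all 20807 protein-coding genes. By chromosome the medians were 32.5 kb ± 12.5 and 23.3 kb ± 6.04 (SD, n = 19), the difference of 9.24 ± 11.3 kb was within 1 SD of 0, and dense windows had the longer genes on 13 of 19 chromosomes. Genes that start in windows of 11 centres had a median of 17.8 kb, and with 10 or more centres in place of 12 the ratio to windows of 1 to 3 sites fell from 1.37 to 1.02. Of all protein-coding genes, 6.24% start in a dense window. That share was 4.75% for genes under 10 kb, 4.90% for 10 to 30 kb, 8.38% for 30 to 100 kb and 11.4% (9.99% to 12.9%) for 100 to 300 kb. For genes of 300 kb or more it was 4.81% (3.30% to 6.95%), lower again, and the relation with length was not monotonic. A long gene covers more windows, and 25.9% of these longest genes touched a dense window somewhere, close to the 27.4% for genes of 100 to 300 kb.

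Inside long genes, centres in dense windows were more frequent toward the 5′ end. In the 641 genes of 100 kb or more that touch a dense window, each gene was cut into 5 equal parts from the 5′ end. The parts held 26.0%, 24.4%, 20.2%, 16.5% and 12.9% of the centres that lay in dense windows, and 23.9%, 21.8%, 19.97%, 18.4% and 16.0% of all centres. For the 1607 genes of that length that touch none, the parts held 25.4%, 19.2%, 18.8%, 17.8% and 18.7% of all centres. Both groups had most centres in the first part, with a slightly smaller share in the genes that touch a dense window, and the second group was nearly flat after it.

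**Figure D3:**
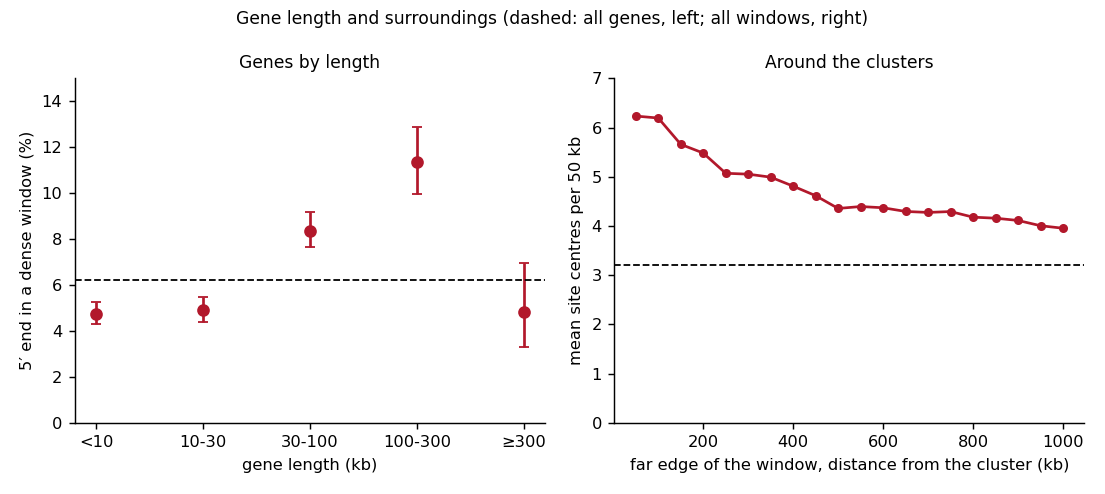
Left, share of protein-coding genes with the 5′ end in a dense window (y axis, %) by gene length in kb, with 95% Wilson intervals and the share of all genes (6.24%) dashed; right, mean number of site centres per 50 kb window (y axis) by distance from the cluster in kb, with the mean of all windows (3.20) dashed. The share peaks at 11.4% for 100 to 300 kb, and the number of sites falls from 6.23 beside the clusters to 3.96 at 1000 kb.

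The clusters stood in site-rich surroundings. The window directly beside a cluster held 6.23 centres on average, the window at 500 kb 4.36 and the window at 1000 kb 3.96, all above the mean of 3.20 for all windows. Windows with no site were rare beside clusters (2.16%) and made up 23.4% of the windows at 1000 kb. Adjoining windows cannot hold 12 or more centres, since they would have been joined, and this sets an upper limit on the first value.

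Dense windows held more marked DNA, in more sites that were also wider than those in windows of 1 to 3 sites. The median total of site bases was 13.4 kb per window (quartiles 10.4 and 18.2 kb), against 5.17 kb in windows of 4 to 11 sites and 0.969 kb (0.488 and 1.74 kb) in windows of 1 to 3 sites. The ratio of the dense to the sparse median was 13.9, and 13.8 ± 1.00 (SD, n = 19) over chromosomes. The number of sites, set by the rule, makes up most of that ratio. The width, which the rule does not use, was 656 bp at the median in dense windows and 493 bp in windows of 1 to 3 sites, a difference of 163 ± 28.5 bp over chromosomes. It was 629 bp in windows of 4 to 11 sites and 674 bp in those of 11, so greater width was not particular to dense windows. The gap between neighbouring sites with centres in the same window was 952 bp at the median in dense windows and 7234 bp in windows of 1 to 3 sites. This contrast follows from the number of sites, which the rule sets. Since the median gap was under 1 kb, how the peak caller joins or splits neighbouring signal sets how many sites are counted: with sites up to 1 kb apart merged, 33 windows still held 12 or more centres.

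Base composition also differed. GC content was 44.5% in dense windows and 41.5% in windows of 1 to 3 sites, a difference of 2.94 ± 0.301 percentage points over 19 of 19 chromosomes. Against windows of 4 to 11 sites (44.2%) the difference was 0.266 points. Repeat-masked sequence took 24.95% against 33.2%. The observed number of CpG dinucleotides relative to that given by the C and G content was 0.224 against 0.189.

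AP-1 words were less common at the centres of sites in dense windows than at sparser sites. TGANTCA occurred in the central 200 bp of 9.90% (9.57% to 10.2%) of sites in dense windows, of 12.9% in windows of 4 to 11 sites and of 15.7% (15.2% to 16.1%) in windows of 1 to 3 sites. The order was the same on every chromosome when dense windows were set beside those of 1 to 3 sites (-5.79 ± 1.09 percentage points, lower on 19 of 19). For scale, 200 bp at the middle of the gaps between sites held the word in 4.87%, 5.31% and 6.04% of cases in the same order, so that sites in all 3 groups held it more often than the DNA between them. The difference remained in sites over 1 kb from a TSS in introns (9.18% against 17.2%) and outside genes (12.2% against 17.9%). At sites within 1 kb of a TSS the shares were 7.43% and 6.42%, and their intervals overlapped. Among sites under 300 bp wide the shares were 7.92% and 16.1%, and among those of 1200 bp or more 9.30% and 10.1%, so the gap was largest for the narrowest of 4 width classes. Per window, dense windows still held more such sites, 1.43 against 0.288. The core word of TEAD factors (CATTCC or GGAATG on either strand) showed a smaller gap in the same direction, 13.2% against 16.2%, with 9.66% and 10.5% between sites. The cyclic AMP response element TGACGTCA was rare, in 0.197% and 0.282% of sites.

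**Figure D4:**
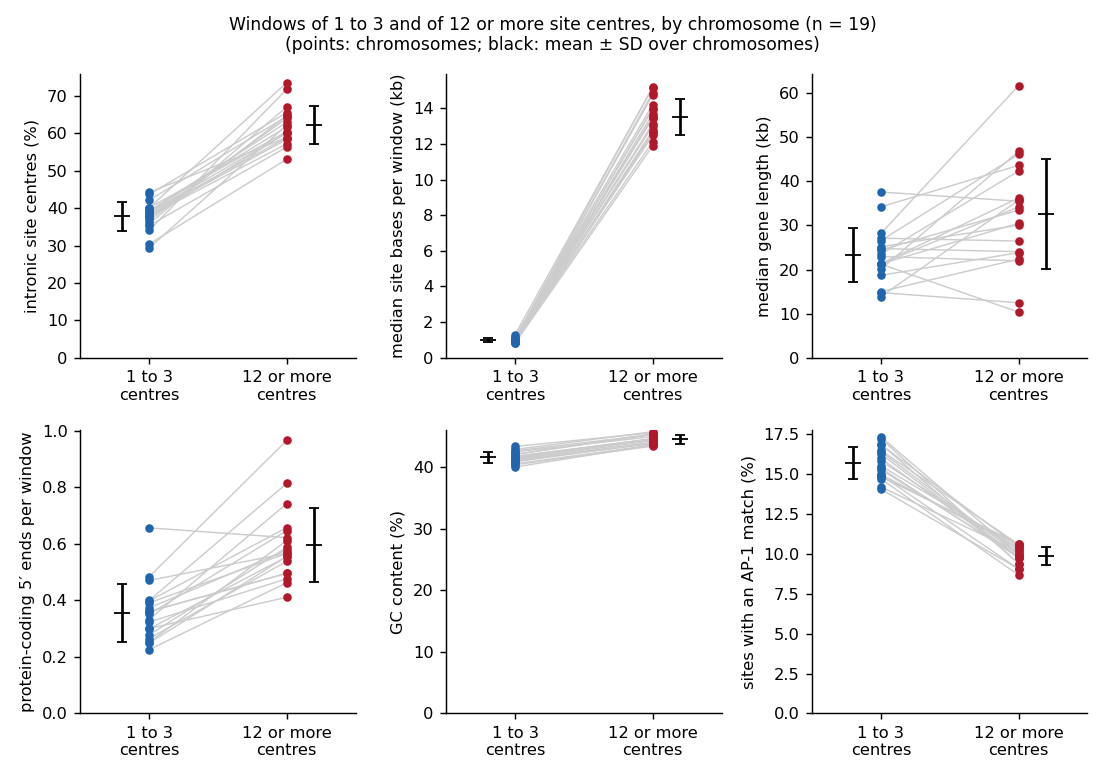
Values of windows with 1 to 3 centres (blue) and with 12 or more (red) for each of 19 chromosomes, joined by grey lines, with the mean ± SD over chromosomes in black: intronic share of centres (%), median site bases per window (kb), median length of genes that start in the windows (kb), protein-coding 5′ ends per window, GC content (%) and share of sites with the AP-1 word (%). Intronic share, site bases and GC content are higher and the AP-1 share is lower on all 19 chromosomes, while the lines for gene length cross.

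The cell type was checked by marker genes. As the background, 65.5% of all protein-coding genes had an H3K4me1 site within 1 kb of the 5′ end and 6.24% started in a dense window. Of 10 fibroblast markers, 9 had such a site and 4 started in a dense window. Of 7 lymphoid and myeloid markers 1 had such a site, and none of 5 hepatocyte markers did. Epithelial (5 of 6), endothelial (3 of 5) and neuronal (3 of 5) markers had a site about as often as all genes, and 1 of these 16 genes started in a dense window. H3K4me1 is known to mark poised as well as active genes, and a site at a marker does not show that it is expressed. A site in the pooled list also need not have been present without dTAG-13.

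Gene lists of fibroblast biology had many members that start in dense windows, against the 6.24% of all protein-coding genes. Among genes with a site within 1 kb of the 5′ end, as most list members have, the share was 8.94%. By length class it ran among those genes from 6.265% (300 kb or more) to 13.7% (100 to 300 kb). The lists were not matched to other genes by length or sites, and were chosen with earlier results of these data known. In Hippo and YAP signalling, the pathway that restrains the coactivators YAP and TAZ, 10 of 23 genes did (43.5%). They included kinases and adaptors (Lats2, Sav1, Mob1a), the transcription factor Tead1, TAZ (Wwtr1), the regulators Limd1 and Amotl1, and the target genes Ccn1, Ccn2 and Ankrd1. Tead1 held 62 centres in dense windows, Wwtr1 33, the TEAD cofactor Vgll4 26 and Lats2 23. The targets are short. Ccn1 and Ccn2 held 2 and 1 centres in the gene while their windows held 17 and 18, and Ankrd1 held 6 of the 12 centres of its window. 5 of the 10 genes (Lats2, Sav1, Mob1a, Amotl1 and Ankrd1) start in windows of exactly 12 centres. With 13 or more centres, a threshold chosen after seeing the data, 5 of 23 (21.7%) remained, against 4.31% of all genes.

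Of the actin and focal adhesion genes, 11 of 30 (36.7%) started in dense windows, and 8 (26.7%) in windows of 13 or more. Lpp held 111 centres in dense windows, Cald1 75 and Vcl (vinculin, which links integrins to actin) 31. The windows of the Lpp and Cald1 5′ ends held 10 and 8 centres, so neither gene is among the 11 despite its count. All 30 genes had a site within 1 kb of the 5′ end, as did 65.5% of all protein-coding genes. Of the fibroblast matrix genes, 10 of 30 (33.3%) started in dense windows, and 9 (30.0%) in windows of 13 or more. They were led by fibrillin-1 (Fbn1) with 63 centres, the laminin chain Lamc1 with 35 and the neighbouring type IV collagen genes Col4a2 and Col4a1 with 27 and 23. Col4a1 and Col4a2 start in the same window of 14 centres, so these are not separate events. Other matrix genes of fibroblasts were outside: the window of Col1a1 held 6 centres and that of Dcn (decorin) 1, whereas that of Col1a2 held 18.

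Of 30 mesenchymal transcription factor genes 8 (26.7%) started in dense windows, and 6 in windows of 13 or more. Foxp1 held 155 centres, Tcf4 55 and Tcf7l2 46. Tcf4 and Tcf7l2 start in windows of 6 and 9 centres and have their dense windows downstream. Of 13 AP-1 genes, Fosl2, Fosl1 and Fosb (23.1%) started in dense windows with 13, 12 and 14 centres, and held 9, 1 and 1 centres in the gene. TGF-β signalling had 5 of 31 (16.1%), of which 3 were in windows of exactly 12. In windows of 13 or more it had 2 (6.45%), against 4.31% of all genes. 12 of its genes (38.7%) touched a dense window, against 9.49% of all genes. Touching rose with gene length, from 5.05% under 10 kb to 27.4% for 100 to 300 kb. The median length of this list was 64.8 kb, against 17.6 kb for all genes. Its latent binding protein Ltbp1 held 81 centres, the receptor genes Bmpr1a and Acvr1 27 and 19, and the ligand gene Tgfb2 23. All 31 had a site within 1 kb of the 5′ end (65.5% of all genes).

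Housekeeping, neuronal and sensory genes were counted in the same way. Of 79 cytosolic ribosomal protein genes, 10 (12.7%, 7.02% to 21.8%) started in dense windows, led by Rpl26 with 5 centres in the gene. 7 of these 10 were in windows of exactly 12, and 3 of 79 (3.797%) were in windows of 13 or more, against 4.31% of all genes. With 10 or more centres, 29 of 79 (36.7%) were included, against 13.1% of all genes. At that threshold the fibroblast lists ran from 30.0% (mesenchymal transcription factors) to 56.5% (Hippo and YAP signalling). A site within 1 kb of the 5′ end was found at 75 of the 79. Of 73 oxidative phosphorylation genes only Atp5b started in a dense window, although 65 had a site at the 5′ end. Ndufa13 touched a dense window, with 3 centres there. None of 16 H3K4 methyltransferase complex genes started in a dense window (0%, upper bound 19.4%). Ash2l itself started in a window of 5 centres, and Dpy30 alone touched a dense window, with no centre in the part that did. Of 30 long neuronal genes, with a median length of 1139 kb, none started in a dense window (0%, upper bound 11.35%). For all genes of 300 kb or more that share was 4.81%, which lies within this bound. The neuronal genes held 0.148 centres per 10 kb at the median, against 0.781 for all genes and 0.541 for genes of 300 kb or more. Only Rbfox1 touched a dense window, with 12 centres there. Of 1086 olfactory receptor genes 3 touched a dense window and 1 started in one. That was Olfr9, which lies on chromosome 10 in a window of 13 centres with none in the gene. The lists are small, their shares depend on the threshold, and how far their shares differ from all genes was described by the intervals and not tested.

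**Figure D5:**
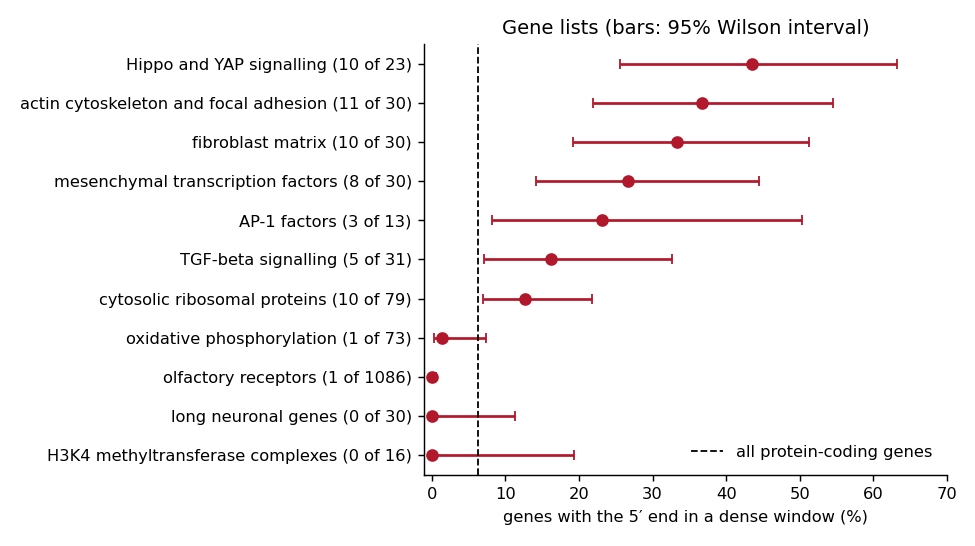
Share of the genes of 11 lists whose 5′ end lies in a dense window (x axis, %), with the number of genes in brackets and 95% Wilson intervals as bars; the dashed line is the share of all protein-coding genes, 6.24%. Hippo and YAP signalling (43.5%), actin and focal adhesion (36.7%) and fibroblast matrix (33.3%) lie highest, and H3K4 methyltransferase complexes and long neuronal genes have no member that starts in a dense window. The lists were chosen with earlier results of these data known.

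MicroRNA genes occurred in the clusters as well. Of 919 autosomal hairpins in RefSeq, 72 (7.83%) lay in dense windows. Dense windows are 4.41% of all windows, and 6.24% of protein-coding genes start in one. Some of the 72 share a window, such as Mir23b, Mir27b and Mir24-1, so they are not separate events. As examples from 3 of the clusters, 10 mature sequences of 5 genes are printed from RefSeq (GRCm38.p6), with the seed (bases 2 to 8) in capitals. These genes were picked after the values were seen.
mmu-miR-31-3p, chr4:88910577-88910599, minus strand: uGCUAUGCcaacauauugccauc
mmu-miR-31-5p, chr4:88910614-88910635, minus strand: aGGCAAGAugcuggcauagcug
mmu-miR-100-5p, chr9:41531437-41531458, plus strand: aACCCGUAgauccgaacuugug
mmu-miR-100-3p, chr9:41531471-41531492, plus strand: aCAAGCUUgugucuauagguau
mmu-miR-125b-5p, chr9:41581940-41581961, plus strand: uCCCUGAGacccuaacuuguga
mmu-miR-125b-1-3p, chr9:41581980-41582001, plus strand: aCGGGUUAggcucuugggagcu
mmu-miR-27b-5p, chr13:63300718-63300739, plus strand: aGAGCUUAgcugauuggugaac
mmu-miR-27b-3p, chr13:63300760-63300780, plus strand: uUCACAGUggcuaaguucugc
mmu-miR-24-1-5p, chr13:63301213-63301235, plus strand: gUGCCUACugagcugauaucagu
mmu-miR-24-3p, chr13:63301251-63301272, plus strand: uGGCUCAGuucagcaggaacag
Mir27b and Mir24-1 lie in the cluster of 106 centres at 2010111I01Rik and share a window of 16 centres with Mir23b. Mir100 and Mir125b-1 lie, with Mirlet7a-2, in a cluster of 45 centres on chromosome 9 that overlaps no protein-coding gene, in windows of 16 and 13. Mir31 lies in a cluster of 85 centres beside Mtap, in a window of 22 centres. The mature sequences of all 5 genes lay under a site.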

How the data were processed

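The authors used Trim Galore for trimming and BWA for alignment (mm10). After filtering in samtools, replicates were merged by Picard, and broad peaks came from Macs. Versions and thresholds are not given in the sources used here. Per the file headers, the deposited table gives chromosome, start and end of each site over all libraries; it has no count, height or p-value, so conditions were not compared here. The authors' lists of changed sites were not analysed here. A site's centre is the integer midpoint. Genes, exons and TSSs came from GENCODE M21, bases and repeat masking from GRCm38.p6, the build of the table. A gene was placed by its most upstream 5′ end. Motifs were counted in the central 200 bp, and between sites at the middle of gaps of at least 1 kb. Python 3.11.15, numpy 2.4.6, scipy 1.17.1, pandas 2.3.3 and matplotlib 3.10.9 were used. Counting, joining and overlap were tested on simulated data, where all 6 checks equalled a direct count.

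The clusters and the gene lists were chosen with earlier results of these data known. The genes named are those of the 10 clusters and the 10 genes with most centres, up to 4 members of each list, and the 3 clusters with most sites without a protein-coding gene or with most gene starts; others were named after their values were seen. Some genes that this rule names are not reported here.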

Additional observations from a re-analysis of the deposited data

Results flagged for a closer look

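Chromosome X lies outside the rule. Of its 3421 windows, 9 (0.263%) held 12 or more site centres, at most 17, against 4.41% of the autosomal windows. Among the genes there were Fhl1, Bgn and Haus7, Tbl1x, Zfx, Msn (moesin, which links actin to the membrane) and Tsc22d3. How many X chromosomes the NG3 clone carries was not tested.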

How the results depend on the processing

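No paired analysis was possible because there is 1 list of sites for all libraries. With 10 or more centres there were 3960 windows and 2679 clusters holding 31.8% of centres, and the ratio of site bases was 12.2; with 15 or more these were 801, 642, 8.79% and 17.1, with differences of 31.2 (intronic share) and 2.58 (GC) percentage points. Sites of at least 500 bp alone gave 342 windows and 290 clusters with 4.92% of centres, and ratios of 1.17 (5′ ends) and 11.9 (site bases). Merging sites within 1 kb gave 33 windows in 33 clusters with 0.376% of centres, differences of 16.9 (intronic) and 0.784 (GC) points, ratios of 1.03 (5′ ends) and 10.97 (site bases), and a gene length ratio of 0.376, the reverse of the main 1.37. Windows of 100 kb gave 608 and 495 with 10.9%, and ratios of 1.21 (5′ ends) and 12.8 (site bases). Against windows of 4 to 11 sites the intronic difference was 13.2 points, GC 0.266 points, the ratio of site bases 2.60, and that of 5′ ends 0.828, the reverse of the main 1.71. The other 26 of 58 alternative values of these 8 results, among them all 8 with the grid shifted by 25 kb, stayed within 1.5 times (counts) or 1 SD over chromosomes. For gene length that SD, 0.539, exceeded the distance of the main ratio, 1.37, from 1. Ratios of 1.02 (10 or more centres) and 1.12 (sites of at least 500 bp) are therefore among the 26 and do not show that the difference was kept. Leaving out the 2 genes of 2.5 Mb or more, chosen after seeing the data, left the intronic difference at 23.7 points. The intronic share kept its direction under all alternatives. Fewer windows at the stricter settings come from the settings themselves; other causes were not tested. No replicate could be left out, and without read depth a weak site and a missed one cannot be told apart.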

Other observations

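Ranked by bases under sites instead of by site centres, the 2174 most covered autosomal windows shared 1137 windows (52.3%) with the dense ones. The other 1037 had at least 26.3% of their bases under sites but a median of 9 centres. They held 1.36 protein-coding 5′ ends per window, against 0.598 in the dense windows, and 53.7% of their bases were intronic, against 58.6%. Conversely, 483 dense windows had under 20% of their bases covered, and the range was 9.46% to 86.3%. The window on the Myc side of the Pvt1 cluster, with 9 centres and 84.2% covered, is of the first sort.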
